A study of Mus musculus with 9 samples.

Results

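The m6A peaks described here lay away from every annotated gene. They are the intervals in the peak lists of wild-type mouse embryonic stem cells (mESCs) that sat on an assembled chromosome of GRCm38/mm10, more than 500 bp from the nearest of 49980 RefSeq gene bodies. They numbered 1202 of 22531 deposited peaks in replicate 1 and 84 of 5040 in replicate 2. They are called far peaks below, and the remaining 21307 and 4952 peaks on assembled chromosomes are called the other peaks. The rule used position alone and no filter on low values was applied, so every member is counted. Far peaks made up 5.34% of the assembled-chromosome peaks of replicate 1 (95% exact binomial interval 5.05 to 5.64) and 1.67% of those of replicate 2 (1.33 to 2.06).

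The WT cells had the genetic background Rosa26:CRE, Bir ligase, and carried no knockout. They were cultured on gelatin with serum and LIF, a cytokine that keeps mESCs undifferentiated. Poly(A)-selected RNA was immunoprecipitated with a polyclonal rabbit anti-m6A antibody and sequenced. Of 9 libraries in the study, the 2 wild-type immunoprecipitations were used, and the other 7, from knockout cells and inputs, were not analysed here. Nothing in the labels says whether the 2 replicates were separate cultures. The peak names inside the list labelled wild-type replicate 1 carry a sample name that does not say wild type, so values are given for each replicate. The overlaps, merged regions and correlations between the 2 lists rest on the sample labels being right.

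N6-methyladenosine is a common internal modification of mRNA. It is written in the nucleus by a complex built around Mettl3 and Mettl14, and is known for its enrichment near stop codons and in 3′ untranslated regions. Nuclear and long noncoding RNAs can carry it too. In mESCs it is known for shortening the life of transcripts that encode pluripotency factors. A peak marks a stretch of RNA recovered more by the antibody than in the input, and does not name the transcript it came from.

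Far peaks were narrower than the other peaks of their list. In replicate 1 the median width was 395.5 bp for far peaks (quartiles 321.25 and 573.75) and 449 bp for the other peaks (330 and 734). In replicate 2 it was 388 bp for far peaks (336.75 and 502.25) and 448 bp for the other peaks (352 and 625.25). Widths of 1000 bp or more were found at 63 far peaks (5.24%) and 3002 other peaks (14.1%) in replicate 1, where 13.6% of all peaks were that wide. In replicate 2 no far peak and 297 other peaks reached that width, against 5.9% of all peaks. Peaks are not replicates of a condition, so these differences were not tested.

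The widest far peak of replicate 1 spanned 2760 bp at chromosome 13 from 97510422 to 97513181, and its nearest gene was the lncRNA gene Gm41030. Next came 2243 bp near the lncRNA gene C130036L24Rik, 1909 bp near the lncRNA gene 1110002J07Rik, 1809 bp near Mtcl1, which encodes a microtubule crosslinking factor, and 1755 bp near the microRNA gene Mir8110. Of these 5 widest peaks, those near C130036L24Rik and Mtcl1 had a counterpart in replicate 2, against 5.74% of all far peaks of replicate 1.

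Fold enrichment, a ratio over local background as the authors' peak caller gave it, had a higher median at far peaks, while −log10 q had a lower one. In replicate 1 the median fold was 6.48 at far peaks and 5.27 at the other peaks. In replicate 2 it was 6.85 at far peaks and 6.34 at the other peaks, but the order turned round at the top, where folds of 10 or more were found at 7 far peaks (8.33%) and 677 other peaks (13.7%). Median −log10 q, where larger values mean stronger evidence, was 14.4 at far peaks and 30.1 at the other peaks in replicate 1. In replicate 2 it was 6.43 at far peaks and 7.55 at the other peaks.

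**Figure D1:**
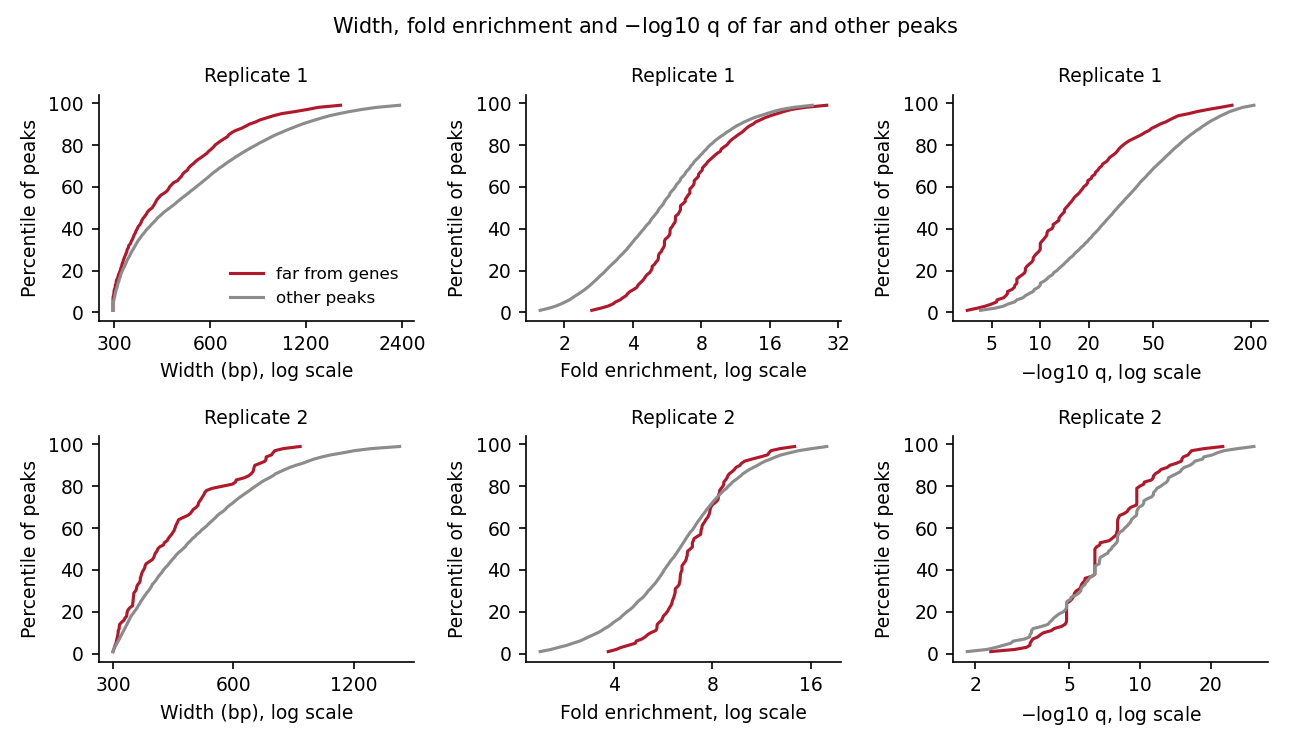
Percentile curves of width in bp, fold enrichment and −log10 q (log axes) for far peaks (red) and other peaks (grey) in each replicate, from the first to the ninety-ninth percentile. In replicate 1 the red curve lies left of the grey for width and −log10 q and mostly right of it for fold, with medians of 395.5 and 449 bp, 14.4 and 30.1, and 6.48 and 5.27.

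Many far peaks held the same values as another peak of their list, far or not. A fold and −log10 q pair identical to that of another peak in the list was found at 923 far peaks (76.8%) and 9549 other peaks (44.8%) of replicate 1, against 46.5% of all peaks. In replicate 2 this was so for 61 far peaks (72.6%) and 3045 other peaks (61.5%), against 61.7% of all peaks. The 8 commonest fold values among far peaks of replicate 1, between 5.19 and 7.77, covered 218 of the 1202. MACS2 compares reads with a local background that cannot fall below a genome-wide level. Whether the input was at that level under these peaks was not tested, because the lists hold no read counts.

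The median distance of a far peak to its nearest gene was 5548 bp in replicate 1 (quartiles 1977.25 and 13934.5) and 3366.5 bp in replicate 2 (1195 and 9694.5). In replicate 1, 149 far peaks lay up to 1000 bp away, 155 up to 2000 bp, 259 up to 5000 bp, 246 up to 10000 bp, 349 up to 50000 bp and 44 farther still. In replicate 2 the same intervals held 13, 21, 15, 14, 20 and 1. Nearest to the limit on the inside were peaks at 501 bp from Tma16, 502 bp from Gm10832 and 504 bp from Krba1 in replicate 1. Just outside were peaks at 495 bp from Phf20l1, 494 bp from Gm31862 and 487 bp from Arhgap17.

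The most remote peak of replicate 1 lay 256200 bp from the pseudogene Gm19039, at chromosome 6 from 110121583 to 110121880, with a fold of 5.84. Arrdc3, which encodes an arrestin domain protein, was 178311 bp from its far peak (fold 12.3). The lncRNA gene Gm29854 was 175291 bp away (fold 6.01), the pseudogene Gm9584 143039 bp (fold 5.51) and Fign, encoding the microtubule-severing protein fidgetin, 135204 bp (fold 9.18). None of these 5 peaks overlapped a peak of replicate 2.

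Strand of the nearest gene was known for 757 far peaks of replicate 1, of which 415 lay beyond the transcript end and 342 before the start (54.8% beyond, 51.2 to 58.4). The other 445 had none, among them every peak nearest to a pseudogene and every one on chromosome 18, so these shares leave them out. Up to 10000 bp from the gene, 309 of 525 lay beyond the end (58.9%, 54.5 to 63.1). At larger distances 106 of 232 did (45.7%, 39.2 to 52.3). Peaks 1 to 500 bp outside a gene, which belong to the other peaks, lay beyond the end in 80 of 196 cases (40.8%, 33.9 to 48.0). In replicate 2, 30 of 47 far peaks lay beyond the end (63.8%, 48.5 to 77.3).

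**Figure D2:**
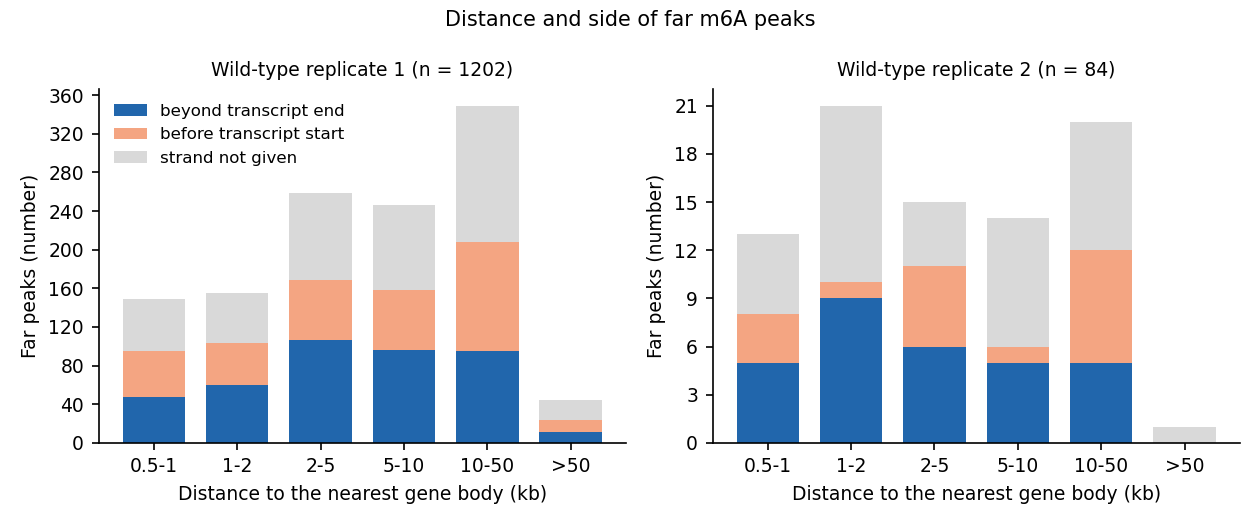
Number of far peaks by distance to the nearest gene body in kb, stacked by side: beyond the transcript end (blue), before the start (orange) or strand not given (grey). In replicate 1 blue exceeds orange between 1 and 10 kb (60 and 43, 106 and 63, 96 and 62 peaks), and orange exceeds blue at 10 to 50 kb (95 beyond and 113 before).

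The side differed with the class of the nearest gene. Where it was a lncRNA gene, 200 of 297 far peaks of replicate 1 lay beyond its end (67.3%, 61.7 to 72.6). Where it was protein-coding, 212 of 448 did (47.3%, 42.6 to 52.1). In replicate 2 the counts were 17 of 18 for lncRNA genes and 13 of 29 for protein-coding genes. Strand was missing in replicate 1 for 116 of 413 peaks nearest to lncRNA genes and 133 of 581 nearest to protein-coding genes. Neighbouring peaks often share a nearest gene, and with 1 peak per run the shares were 64.1% and 48.4%, in the same order. The difference between the classes was not tested. With protein-coding genes as the sole annotation the share beyond the end was 45.4%.

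Protein-coding genes were nearest to 581 far peaks of replicate 1 (48.3%), lncRNA genes to 413 (34.4%), pseudogenes to 158 (13.1%) and microRNA genes to 12 (0.998%). Of all annotated genes, 43.8% were protein-coding, 25.5% lncRNA genes, 19.9% pseudogenes and 2.46% microRNA genes. In replicate 2 protein-coding genes were nearest to 41, lncRNA genes to 29 and pseudogenes to 10. The 857 different nearest genes of replicate 1 often carried a peak themselves: 394 (46.0%) had one within 500 bp, against 22.3% of all annotated genes. Taking the nearest protein-coding gene instead, 511 of 792 did (64.5%), against 41.3% of all protein-coding genes. Among nearest lncRNA genes 84 of 268 did (31.3%), against 12.5% of all lncRNA genes. In replicate 2, 16 of 76 nearest genes had such a peak (21.1%, 12.5 to 31.9), against 8.24% of all genes. Of its nearest protein-coding genes 20 of 76 had one (26.3%, 16.87 to 37.68), against 16.91% of all, which lies inside that interval. Of its nearest lncRNA genes 5 of 26 had one (19.2%, 6.55 to 39.4), against 2.65%.

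Overlap between the replicates was counted for each list. Of the 1202 far peaks of replicate 1, 69 overlapped a replicate 2 peak by at least 1 bp (5.74%, 4.49 to 7.21), as did 4235 of the other peaks (19.9%, 19.3 to 20.4), and 19.1% of all peaks. Of the 84 far peaks of replicate 2, 78 overlapped a replicate 1 peak (92.9%, 85.1 to 97.3), as did 4558 other peaks (92.0%), and 92.1% of all peaks. The replicate 1 list was the longer, so the shares of the 2 replicates have different ceilings. Cut to as many peaks as replicate 2, by −log10 q, replicate 1 kept 90 far peaks, of which 43.3% were found again, and 53.6% of the far replicate 2 peaks were then found in it. With an overlap of 50% of both peaks the shares were 3.74% for replicate 1 and 58.3% for replicate 2, from the whole lists. Depth is unknown for both, and the sample labels give a single wild-type input for the 2 lists.

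The share found again was larger at higher significance. The replicate 1 list was split by −log10 q into 5 classes of like size, from class 1 (lowest) to class 5 (highest). In class 1, 2 of 505 far peaks were found again (0.396%), against 2.93% of the other peaks, and in class 3 it was 8 of 193 (4.15%), against 12.7%. In class 4 it was 19 of 123 (15.4%), against 23.6%. In class 5, 37 of 78 far peaks were found again (47.4%, 36.0 to 59.1), against 51.2% of the other peaks (49.8 to 52.7). The differences within classes were not tested. The 69 shared far peaks of replicate 1 had a median width of 752 bp and a median fold of 12.6, and the 1133 unshared ones 380 bp and 6.41.

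**Figure D3:**
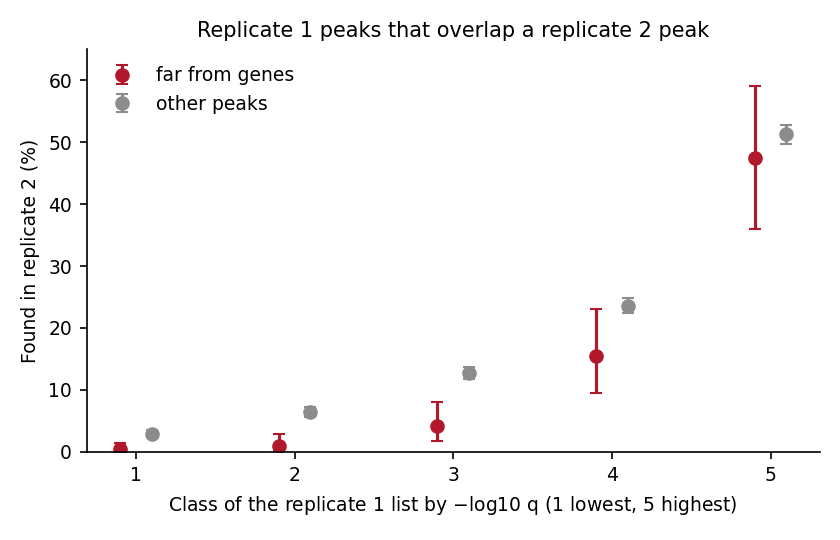
Share of replicate 1 peaks that overlapped a replicate 2 peak, in %, by class of −log10 q in the replicate 1 list (1 lowest, 5 highest), for far peaks (red, left) and other peaks (grey, right), with 95% exact binomial intervals. The share climbs to 47.4% of far peaks and 51.2% of other peaks in class 5. The differences within classes were not tested.

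Merged over both lists, the far peaks made 1215 regions: 69 with a far peak in both replicates, 1133 in replicate 1 alone and 13 in replicate 2 alone. Of those 13, 7 overlapped a replicate 1 peak that reached to within 500 bp of a gene, and 6 had no replicate 1 counterpart. These 6 had as nearest genes Stc2, which encodes the secreted glycoprotein stanniocalcin 2, the lncRNA genes Gm45950, Gm33622 and Gm38790, the pseudogene Gm20762 and the snoRNA gene Gm24598. Summits of the shared far peaks of replicate 1 lay a median of 7 bp from those of their partners.

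Ranked by the lower of the 2 folds, the first shared region lay 1069 bp from the lncRNA gene Gm46515, at chromosome 15 from 36679546 to 36680433. Its fold was 41.2 in replicate 1 and 14.2 in replicate 2. Near Slc23a1, encoding a sodium-dependent vitamin C transporter, the fold was 41.2 in replicate 1 and 12.2 in replicate 2 at a distance of 684 bp.

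Arhgap8 had a far region on chromosome 15 from 84774737 to 84775742, with folds of 17.9 in replicate 1 and 11.9 in replicate 2. Near Dpep2, encoding a membrane dipeptidase, they were 21.6 and 11.2, in the same order of replicates. Near Stac2, encoding an adaptor protein with SH3 and cysteine-rich domains, they were 13.1 and 10.4. All 3 genes are protein-coding, and the regions lay 1880, 527 and 3709 bp from them.

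The pseudogene Gm10231 was 1336 bp from a region with folds of 23.9 in replicate 1 and 9.47 in replicate 2, where 1 peak of replicate 1 met 2 of replicate 2. The lncRNA gene D830050J10Rik was 6196 bp from a region beyond its end, with folds of 13.0 and 9.17. Serbp1, which encodes an mRNA-binding protein, had its region 6347 bp before the start, with folds of 16.1 and 8.91 and summits at the same base. Golm1, encoding a Golgi membrane protein, had one 3829 bp before the start (26.6 and 8.80), and the protein-coding gene Gm6871 one 14237 bp beyond the end (19.4 and 8.67).

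Fold was higher in replicate 1 at 54 of the 69 shared regions and in replicate 2 at 15. One of the 15 lay 1834 bp before the start of Foxd3, which encodes a forkhead factor needed in pluripotent cells, with folds of 7.73 in replicate 1 and 9.83 in replicate 2. Near Adgrv1, encoding an adhesion G protein-coupled receptor, they were 5.53 and 14.7. Both were named after their values were seen. Across the 69 regions log2 fold had a Pearson correlation of 0.32 and fold a Spearman correlation of 0.26 between replicates. These are descriptions over regions that share 2 libraries, for which the labels give a single wild-type input.

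**Figure D4:**
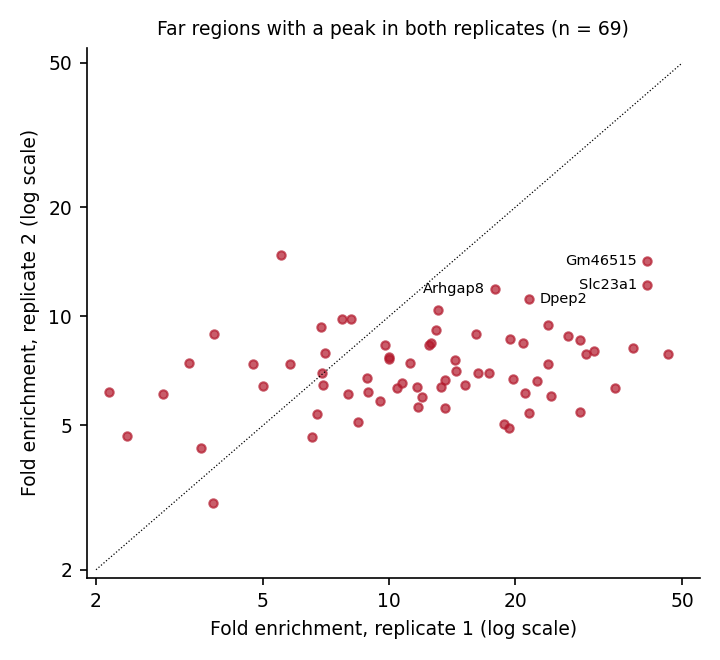
Fold enrichment of the 69 far regions with a peak in both replicates, replicate 1 on the horizontal and replicate 2 on the vertical axis (both log), with the line of equality dotted. Most points (54) lie below the line, and Gm46515 and Slc23a1 stand at the upper right.

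The highest fold among all far peaks of replicate 1, 54.7, belonged to a peak on chromosome 2 from 169102538 to 169103285, which lay 23252 bp before the start of the lncRNA gene Gm52536 and had no counterpart in replicate 2. The next, 46.3, lay 561 bp from the zinc finger gene Zfp114 and was found in replicate 2 with a fold of 7.88.

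Runs of far peaks were counted next. Joining far peaks at most 5000 bp apart left 681 single peaks, 170 pairs and 52 runs of 3 or more in replicate 1, and 25 such runs when gaps were limited to 1000 bp. The longer runs held 181 peaks (15.1%), and 5 of the 52 (9.62%) had a peak that was found in replicate 2. Among pairs, 25 of 170 did (14.7%). Of the 181 peaks in longer runs, 6 were found there (3.31%), against 5.74% of all far peaks of replicate 1. Paired peaks went the other way, with 30 of 340 found (8.82%), and 33 of 681 single peaks were found (4.85%). Replicate 2 had 68 single peaks, 8 pairs and no longer run, and its 16 paired and 62 of its 68 single peaks overlapped a replicate 1 peak, against 92.1% of all its peaks. These pairs lay near Gm46515, Arhgap8, Gm10231, Spred2, Gm10451, Gatb, Tma16 and Gm41649. Spred2 encodes an inhibitor of Ras signalling to MAP kinase, and its pair lay 40780 and 44625 bp before its start.

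The run with most peaks had 8 over 17083 bp of chromosome 13, between the lncRNA genes Lncenc1 and Gm41030. Lncenc1 is a noncoding RNA known from mESCs. The peaks lay beyond the end of whichever of these genes was nearer, at 1214 to 10839 bp, with folds of 2.29 to 7.05 and −log10 q of 17.5 to 188.0. In the 5000 bp before the run, replicate 1 also had 2 peaks inside Lncenc1, and replicate 2 had no peak in the run.

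The run of 6 peaks lay before the start of Mtcl1, over 6952 bp of chromosome 17 from 66458623. Their folds in order along the chromosome were 7.92, 4.85, 3.11, 7.02, 4.22 and 4.46. Only the one with a fold of 7.02 was found in replicate 2, where its fold was 7.91. Another 4 runs had 5 peaks each. They spanned 7589 bp near the pseudogene Rab7-ps1 and Ireb2, which encodes an iron-responsive RNA-binding protein, 3753 bp beyond the end of the lncRNA gene Gm40712, 7170 bp near the pseudogene Gm17891, and 6250 bp near Gm10651 and the zinc finger gene Zfp780b. None of these 20 peaks was found in replicate 2, against 5.74% of all far peaks of replicate 1.

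**Figure D5:**
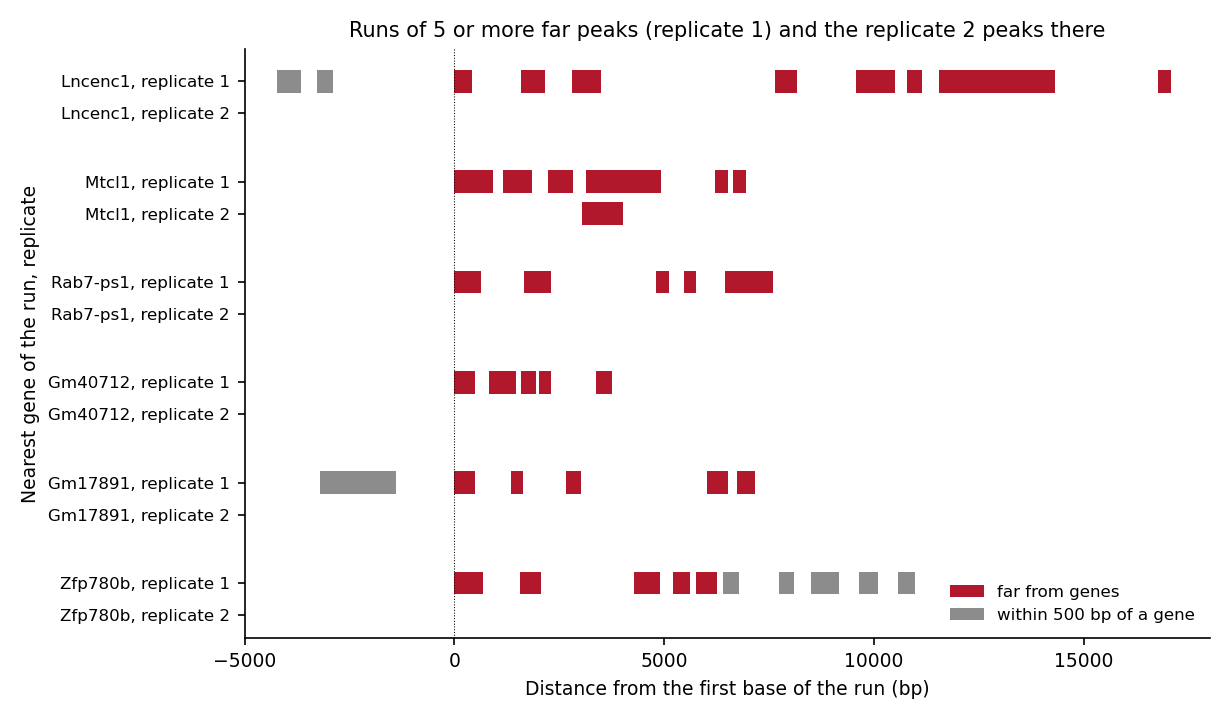
Positions of peaks in the 6 runs of 5 or more far peaks of replicate 1, as distance in bp from the first base of the run, with replicate 1 above replicate 2 for each run. Red bars are far peaks and grey bars peaks within 500 bp of a gene. The Lncenc1 run has 8 red bars over 17083 bp, and replicate 2 has a single bar, in the Mtcl1 run.

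Mtcl1 was the nearest gene of 10 far peaks of replicate 1, the most of any gene, and 2 of them were found in replicate 2. Mir8110 and Spaca7, which encodes a sperm acrosome protein, were nearest to 7 each, and the genes Gm10231, Gm33622, Gm41418, Gm6360 and Lncenc1 to 6 each. Of the 857 nearest genes, 637 had 1 far peak. When only protein-coding genes were considered, Zfp64, encoding a zinc finger factor, came first with 16 far peaks, all before its start at 10305 to 337288 bp. A lncRNA gene lay nearer to each of the 16, among them Gm33622 and Gm52536. None of the 16 was found in replicate 2, against 5.74% of all far peaks of replicate 1. Replicate 2 had a far peak nearest to Gm33622 (fold 5.91), 747 bp from the closest of the 16. The 7 peaks assigned to Mir8110 all lay beyond the end of Sall1, which encodes a zinc finger factor of kidney development, at 15887 to 71186 bp.

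Lists of genes with roles in these cells were looked up as nearest protein-coding genes, as a description. In replicate 1, 3.62% of all protein-coding genes were nearest to a far peak, and in replicate 2 0.347%. Of 8 genes of the methyltransferase complex, Zc3h13 was, with a peak 17347 bp beyond its end (fold 7.60). Of 14 naive pluripotency genes, 6 were: Klf4, Tbx3, Zfp42, Prdm14, Dppa3 and Nr5a2. The highest fold among them was 16.2, at 36970 bp from Prdm14, which encodes a repressor of differentiation genes. The gene Gm5250 was nearer to that peak, at 13535 bp. Of the 6, only Zfp42, a classical mESC marker, was also the nearest gene of any class, at 4732 bp (fold 4.67). The peak 66039 bp beyond Nr5a2, an orphan nuclear receptor gene, was the member of this list found in both replicates. Its folds were 9.49 in replicate 1 and 5.85 in replicate 2. The pseudogene Gm8762 was nearer to it, at 12545 bp in replicate 1.

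Of 16 lineage genes, 3 were nearest to a far peak in replicate 1: Eomes, Gata6 and Sox1. Eomes, which encodes a T-box factor of mesendoderm, had peaks 79744 and 100311 bp before its start with folds of 3.16 and 23.5, and the lncRNA gene Platr11 was nearer to both. Gata6, encoding a factor of primitive endoderm, had a shared peak 34834 bp away in replicate 1 (fold 11.2) and 34992 bp away in replicate 2 (fold 7.45). The lncRNA gene 9130001E16Rik was nearer to the Gata6 peak, at 7966 bp in replicate 1 and 8080 bp in replicate 2. Sox1, encoding a neural factor, had 4 peaks at 55599 to 78401 bp beyond its end. None of these 4 was found in replicate 2, against 5.74% of all far peaks of replicate 1. The lncRNA genes Gm33326 and Gm33532 were nearer to them, at 750 to 3344 bp. Of the 16 lineage genes, 0 were the nearest gene of any class, against 857 of 49980 annotated genes in replicate 1 and 76 in replicate 2. In replicate 1, 5 of 10 mESC marker genes and 3 of 6 fibroblast marker genes had a peak of their own, against 41.3% of all protein-coding genes. In replicate 2, 0 of 10 and 2 of 6 did, against 16.9%. Peak lists hold no expression, so these counts do not check the identity of the cells.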

How the data were processed

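Poly(A)-selected RNA of wild-type mESCs was immunoprecipitated for m6A in 2 libraries. The authors called peaks in each library separately against input with MACS2 at default settings. The sample labels give a single wild-type input library, so the 2 lists do not have separate inputs. Bowtie, SAMtools and MACS2 appear in the processing notes of the submitters without a version, beside the build mm10. The deposited fold enrichment is a ratio over the local background of MACS2, which is not always the input itself. The deposited −log10 q comes from the same call. The deposited score was not used. The lists hold no read counts, so depth is unknown and precision cannot be derived from it. The libraries were made with a directional kit. Whether peak calling used strand, and how duplicate reads were handled: not given in the sources used here.

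Peaks were joined to 49980 RefSeq gene bodies of GRCm38.p6 on assembled chromosomes (21900 protein-coding), of which 28097 had a strand. Distance was the difference of coordinates, 0 for an overlap, and positions are counted from 1. Peaks were shared at 1 bp of overlap. Runs joined far peaks up to 5000 bp apart. Shares have 95% exact (Clopper-Pearson) binomial intervals, which cover counting error only. Peaks are not replicates, so no test was run. Distance, overlap and run functions were checked on 300 simulated intervals, with 0 differences from a direct count.

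Regions named are the 10 shared regions of highest lower fold, the 5 runs with most peaks (6 with ties), the 5 farthest and 5 widest peaks, those at the distance limit, the 5 genes nearest to most far peaks with ties, and list genes. Others were chosen after their values were seen. The members and lists were chosen with earlier results of these data known. Peaks on unplaced or unlocalized sequences were left out. Alternatives varied the distance limit, annotation, overlap, run gap and peak filters. The work used scipy 1.17.1, pandas 2.3.3 and numpy 2.4.6 under Python 3.11.15, with figures by matplotlib 3.10.9.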

Additional observations from a re-analysis of the deposited data

Results flagged for a closer look

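Outside the assembled chromosomes, 22 peaks of replicate 1 lay on 3 unplaced or unlocalized sequences, with folds of 1.87 to 23.4, and 4 peaks of replicate 2 lay on 2 such sequences, with folds of 6.11 to 8.37. They stand out because no comparison above used them, and the distance rule was not applied to them.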

How the results depend on the processing

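Of 50 values under alternative settings, 14 moved and 36 did not: counts within 1.5 times the reported one, shares inside its 95% interval and medians within 1 SD of the 2 replicates' medians were taken as not moved. With protein-coding genes as the sole annotation, far peaks numbered 2509 in replicate 1 and 236 in replicate 2, and the share beyond the transcript end was 45.4%; a shorter annotation leaves more peaks far from it by construction. At more than 2000 bp, replicate 2 kept 50. Cutting the replicate 1 list to its most significant peaks, as many as replicate 2 has, left 90 far peaks, of which 43.3% were shared, and 53.6% of far replicate 2 peaks were then shared. Requiring overlap of 50% of both peaks gave shares of 3.74% in replicate 1 and 58.3% in replicate 2. In replicate 2 the share was 81.0% for summits within 100 bp and 84.3% at a fold of at least 4, and the median width was 431 bp at −log10 q of at least 5. Runs of 3 or more numbered 25 with gaps up to 1000 bp. Without 1 replicate, merged regions ranged from 84 to 1202. The cause of these shifts was not tested beyond what the settings do by construction. Taking 1 peak per run, and the q and fold filters on the lncRNA and protein-coding side shares, were chosen after seeing the data; the lncRNA share stayed between 64.1% and 67.8% and the protein-coding share between 44.0% and 48.4%. The motif search in the plan was not run, as no genome was used here. No paired analysis was possible because a single group was analysed and no test was run. Depth is unknown, so a peak missing from replicate 2 is not shown to be absent.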

Other observations

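Genes named Zfp, most of which encode zinc finger proteins, were 43 of the 792 nearest protein-coding genes of far peaks in replicate 1 (5.43%, 95% exact binomial interval 3.96 to 7.24). They were 1.81% of all protein-coding genes and 3.62% of those with a peak of their own. In replicate 2 they were 7 of 76 (9.21%, 3.78 to 18.1), and 3.94% of the protein-coding genes with a peak of their own, which lies inside that interval. This group was chosen after its values were seen and was not tested.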
